A study of Mus musculus with 6 samples.

Results

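The comparison described here is between sorted leukemia cells labelled DOT1L High and sorted leukemia cells labelled DOT1L Low, both transduced with DOT1L. It was chosen by library label and uses 4 of the 6 libraries of the series, 1 High and 1 Low library for each of the leukemias K3117 and K3174. The cells were mouse acute myeloid leukemia (AML) driven by KMT2A-MLLT3, taken from the marrow of diseased animals, and gene expression was measured by RNA-seq. All 6 libraries carried KMT2A-MLLT3. Cells were cultured in DMEM with serum, interleukin 3, interleukin 6 and stem cell factor, and RNA was taken 3 days after the sort. The remaining 2 libraries, labelled NT (not expanded in the labels), entered the model and are given as a reference level. The labels do not state the vector, promoter or species of the introduced DOT1L, the sort gates, whether NT cells were transduced or sorted, or whether the K numbers are separate animals. If they are not, the p-values cover no more than the spread of these libraries, which may be technical.

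DOT1L is the methyltransferase of histone H3 lysine 79 and binds MLLT3, so that the KMT2A-MLLT3 fusion brings it to genes such as Hoxa9, Meis1 and Mef2c, which keep myeloid progenitors immature. Granulocytes mature through ordered programs: azurophil (primary) granule enzymes such as Mpo and Elane come first. Secondary granule proteins such as lactoferrin (Ltf), Ngp and cathelicidin (Camp) follow, under factors of the C/EBP family. Eosinophils, basophils and mast cells have granule proteins of their own, and monocytes and macrophages are marked by receptors such as Csf1r and Adgre1 (F4/80).

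Total counts were 30913389 (Low) and 23132184 (High) in K3117 and 33265848 and 30304101 in K3174. Levels are given in CPM (a gene's count relative to the library total) scaled by TMM factors, and differences as log2 fold changes with their SE from edgeR's quasi-likelihood test, with the K number as a block. A gene was called at a Benjamini-Hochberg adjusted p below 0.05 over 15812 genes. Dot1l (chromosome 10, 80755206 to 80795461, plus strand, GRCm38) was at 184 CPM in Low and 149.8 CPM in High of K3117, and at 152 and 136 CPM in K3174. The counts of the mouse gene were not higher in High of either leukemia (log2 -0.23 ± 0.14, adjusted p = 0.54, 95% interval of the fold 0.687 to 1.06), and the groups are named by their labels. Ptprc, the pan-leukocyte antigen CD45, lay between 271 and 315 CPM in the 4 libraries. Kit, the stem cell factor receptor of progenitors and mast cells, lay between 183 and 219 CPM, so both were present in all 4 libraries. Among other markers of the leukemia cells, Itgam was called higher and Meis1 lower in High, while Spi1, Cebpa, Mpo and Hoxa9 did not pass. RNA was measured in bulk, so fewer cells of a type and less RNA per cell cannot be told apart.

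Between DOT1L Low and DOT1L High, genes of maturing neutrophils, eosinophils, basophils and mast cells rose, together with 11 of 20 monocyte and macrophage genes and 13 of 19 receptors for microbes, antibody and complement. Called higher too were 6 of 10 erythroid and 4 of 10 megakaryocyte genes, counts that fell without either Low library. Flt3, fusion targets such as Mef2c and the imprinted RNAs Rian and Meg3 fell. Of 15812 genes, 866 passed (5.48%). Of these, 652 were higher in High (4.12%) and 214 lower (1.35%). At least 2-fold separated 389 of the higher and 119 of the lower genes, and at least 4-fold 132 and 38. The number of calls changed with the block and with single libraries. Without the replicate block no gene passed edgeR's test (1238 genes had an unadjusted p below 0.05, against 2417 with it, and the smallest adjusted p was 0.18), while DESeq2 with the block called 878. Left-out libraries gave between 335 calls (without K3117 Low) and 1982 (without K3117 NT), with 489 without K3174 Low, 592 without K3174 High and 1934 without K3174 NT. Without a Low or High library its label keeps 1 library, whose spread is assumed to be that of the other labels. Without an NT library the remaining NT library is fitted exactly, so High against Low rests on the other 4 libraries. Each of these fits, like that of the 4 libraries alone, leaves 1 residual degree of freedom, against 2 with all libraries. The larger counts without an NT library are therefore no better founded. This holds for each such value given here.

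Both leukemias moved the same way in 864 of the 866 called genes, which a blocked test favours. Over all tested genes the share was 63.1%, and the within-leukemia differences correlated across genes at r = 0.52 (genes are not independent replicates). The median rise of the 652 higher genes was 1.14 in K3117 and 1.18 in K3174 on the log2 scale, and the median of the 214 lower genes was -1.14 and -1.0. The leukemias differed in level: for 60 of the 652 higher genes the Low library of K3174 was at or above the High library of K3117. Both High libraries lay above both Low libraries for 557 of the 652, and below them for 163 of the 214; over all tested genes the groups did not overlap in 36.4%. Summed over the called genes, mean CPM rose by 25516 over the higher genes and fell by 3878 over the lower ones.

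**Figure D1:**
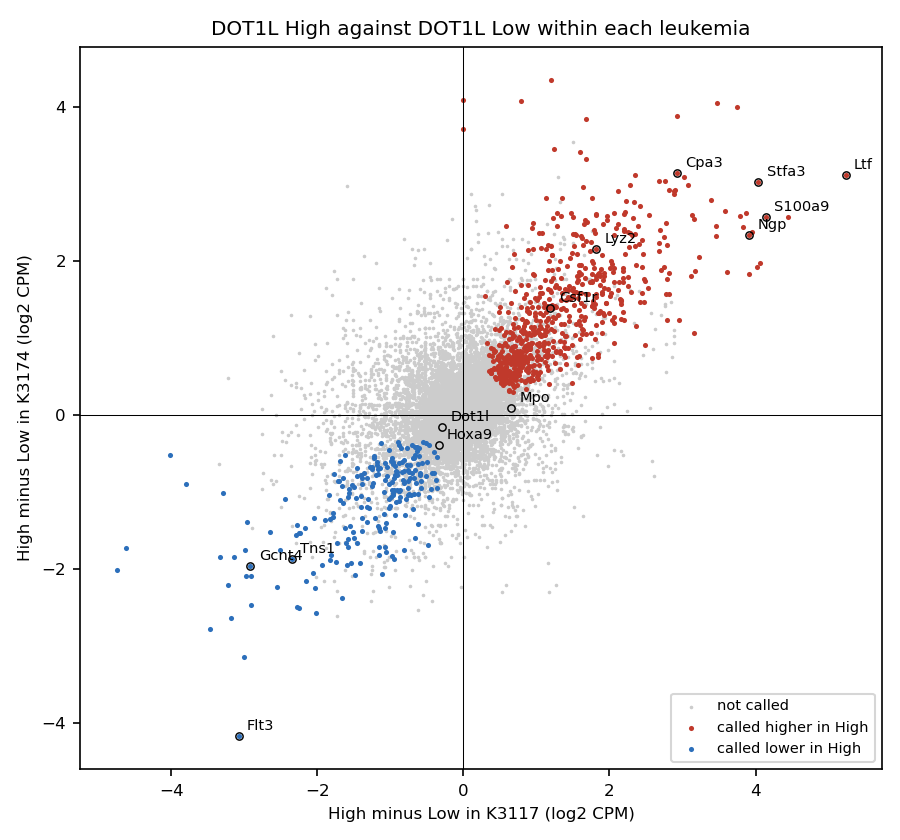
Difference between DOT1L High and DOT1L Low in log2 CPM within K3117 (x axis) and within K3174 (y axis), 1 point per tested gene; 652 genes called higher are red, 214 called lower are blue, the rest grey. Ltf and S100a9 lie at the upper right, Flt3 at the lower left, and Dot1l, Hoxa9 and Mpo near the centre.

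Secondary granule and other late neutrophil genes rose in High of both leukemias. Of 25 such genes, 24 could be tested, of which 22 rose and 0 fell; their median difference was 2.49 on the log2 scale, beside 0.00 over all tested genes. Without K3117 Low, 18 were called. To show the DNA at the start sites of the leading members, the RefSeq windows (GRCm38.p6, 250 bases before to 50 after the start, each in the gene's own direction) of Ngp, Ltf and S100a9, which hold the C/EBP letters TTGCNNAA on one strand or the other, and of S100a8, which holds the PU.1 letters GAGGAAGT read on the opposite strand, are printed with those matches in capitals. Ngp lies at chr9:110419558-110419857 (plus strand), Ltf at chr9:111019042-111019341 (plus), S100a9 at chr3:90695672-90695971 (minus) and S100a8 at chr3:90668821-90669120 (plus).
Ngp: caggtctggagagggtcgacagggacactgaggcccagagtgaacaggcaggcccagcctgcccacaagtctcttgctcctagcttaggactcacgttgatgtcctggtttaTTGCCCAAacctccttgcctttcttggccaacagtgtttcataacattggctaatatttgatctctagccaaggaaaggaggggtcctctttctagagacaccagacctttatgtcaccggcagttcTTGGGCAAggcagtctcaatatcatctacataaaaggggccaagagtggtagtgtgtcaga
Ltf: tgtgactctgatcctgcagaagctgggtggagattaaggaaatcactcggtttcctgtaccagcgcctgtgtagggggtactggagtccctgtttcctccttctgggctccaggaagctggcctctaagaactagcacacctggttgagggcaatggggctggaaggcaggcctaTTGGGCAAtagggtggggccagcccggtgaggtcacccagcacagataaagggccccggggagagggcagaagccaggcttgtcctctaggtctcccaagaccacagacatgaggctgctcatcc
S100a9: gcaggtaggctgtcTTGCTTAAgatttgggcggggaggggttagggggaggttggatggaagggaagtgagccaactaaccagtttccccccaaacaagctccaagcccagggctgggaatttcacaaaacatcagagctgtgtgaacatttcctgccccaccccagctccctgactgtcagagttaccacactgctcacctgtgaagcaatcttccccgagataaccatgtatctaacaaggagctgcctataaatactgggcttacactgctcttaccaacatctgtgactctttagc
S100a8: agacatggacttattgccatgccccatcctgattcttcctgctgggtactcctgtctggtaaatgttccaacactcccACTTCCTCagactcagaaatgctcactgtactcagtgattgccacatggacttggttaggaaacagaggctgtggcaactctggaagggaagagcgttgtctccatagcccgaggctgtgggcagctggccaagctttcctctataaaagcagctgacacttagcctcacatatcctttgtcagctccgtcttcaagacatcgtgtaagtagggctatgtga

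Across windows of this length, TTGCNNAA on either strand was found in 8.74% of the 13174 windows of tested genes (10355 genes had a window), in 16.0% of 617 windows of genes called higher, in 9.0% of 211 of genes called lower and in 7 of 21 windows of the late neutrophil genes. GAGGAAGT was found in 3.43%, 6.32% and 2.37% of those sets and in 7 of the 21. The pair of motifs was searched separately, so a base could count in both. A match is a string of letters and does not show that a factor binds there.

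Ltf encodes lactoferrin, an iron-binding protein of secondary granules. It went from 0.833 to 33.9 CPM in K3117 and from 38.2 to 332 CPM in K3174. Both High values exceeded their own Low value, but the K3117 High level was below the K3174 Low level, so the groups overlapped across leukemias. The fitted difference was log2 3.76 ± 0.34 (13.5-fold, adjusted p = 0.00012). S100a9, a subunit of calprotectin, went from 28 to 496 CPM in K3117 and from 413 to 2441 CPM in K3174 and did not overlap between groups (10.5-fold, log2 3.39 ± 0.31, adjusted p = 0.00014). S100a8, its partner, went from 27.6 to 428 CPM in K3117 and from 350.5 to 1819 CPM in K3174 (9.27-fold). Ngp, a granule protein of neutrophil precursors, went from 26.8 to 404 CPM in K3117 and from 319 to 1609.5 CPM in K3174 (8.93-fold, log2 3.16 ± 0.32). For all 4 genes K3174 was higher than K3117 under each label.

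Camp and Lcn2 (lipocalin, which binds bacterial siderophores) rose 7.25-fold and 7.07-fold. Cd177, a neutrophil surface antigen, went from 7.18 to 53.4 CPM in K3117 and from 24 to 177 CPM in K3174, nearly the same log2 difference in both (2.88 in K3117 and 2.87 in K3174). Chil3, a chitinase-like secretory protein, went from 2.05 to 46 CPM in K3117 and from 68.9 to 408 CPM in K3174 (log2 3.43 ± 0.42). Itgb2l, a neutrophil integrin chain, rose 7.15-fold. Of the 22 called genes, 16 had both High libraries above both Low libraries, beside 557 of all 652 genes called higher and 3024 of the 15812 tested. Mmp8, a neutrophil collagenase, did not pass (log2 0.68 ± 0.28, adjusted p = 0.26; 1.29 in K3117 and 0.09 in K3174), nor did Ly6g, the Gr-1 antigen of mature neutrophils (log2 2.08 ± 0.59, adjusted p = 0.069). Retnlg had at most 4 counts in any of the 4 libraries and was not tested.

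A smaller part of the primary granule list was called, which also holds the transcription factors Cebpe and Gfi1. Of 13 tested, 3 rose and none fell, with a median of 0.45. This share of 23.1% lay above the 4.12% called higher among all tested genes, but the calls included Cebpe and Gfi1. Prss57 was the only granule protein gene among them. Mpo, the peroxidase of azurophil granules, went from 579 to 913 CPM in K3117 and from 1989 to 2118 CPM in K3174 and did not pass (log2 0.45 ± 0.46, adjusted p = 0.77). Elane, neutrophil elastase, went from 514 to 953 CPM in K3117 and from 955 to 1185 CPM in K3174 (log2 0.64 ± 0.27, adjusted p = 0.27). Prtn3, a serine protease stored beside it, went from 746 to 1162 CPM in K3117 and from 1265 to 1473 CPM in K3174 (adjusted p = 0.24). The 3 that rose were the granule protease Prss57 (log2 0.96 ± 0.14, adjusted p = 0.0019), Cebpe, the C/EBP factor of secondary granule genes, from 57.5 to 152 CPM in K3117 and from 116 to 235 CPM in K3174 (log2 1.23 ± 0.20, adjusted p = 0.004), and Gfi1, a repressor required for granulocytes (log2 0.59 ± 0.12, adjusted p = 0.012). Between NT and Low, which shares the Low libraries, 14 of the 24 late neutrophil genes passed as higher (median 1.43). In that step 10 of the 13 genes of the primary granule list passed as higher (median 1.29). Fewer members of this list were called higher without K3117 Low, and more without K3174 High or either NT library. The fits without K3117 High or either NT library also called a member lower. Gfi1 did not pass without K3117 Low (adjusted p = 0.21), K3174 Low (0.11) or K3174 High (0.20), and Prss57 not without K3117 Low (0.054). Mpo, Elane and Prtn3 passed as higher with the 4 High and Low libraries alone, and leaving out either NT library is nearly that same fit. Without K3174 High their log2 fold changes were 1.12 (Mpo), 1.13 (Elane) and 0.76 (Prtn3), and Mpo was at -0.60 without K3117 High.

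Eosinophil genes rose in both leukemias. Of 9 tested, 8 rose and none fell, with a median of 2.91, and 6 were called without K3174 Low. Epx (chromosome 11, 87864000 to 87875536, minus strand), eosinophil peroxidase, went from 27.1 to 221 CPM in K3117 and from 45 to 382 CPM in K3174, with no overlap between groups (8.34-fold, log2 3.06 ± 0.35, adjusted p = 0.00051). Prg2, the major basic protein, went from 24 to 178 CPM in K3117 and from 71.6 to 538 CPM in K3174 (7.52-fold, log2 2.91 ± 0.32). Prg3, its homolog, rose 5.93-fold, and Il5ra, the interleukin 5 receptor chain, from 0.448 to 3.51 CPM in K3117 and from 1.56 to 7.44 CPM in K3174. The within-leukemia differences of Prg2 were 2.89 in K3117 and 2.91 in K3174, and those of Epx 3.02 in K3117 and 3.08 in K3174. Ear6, an eosinophil-associated ribonuclease, had the largest fold change among genes with a mean of at least 5 CPM (17.4-fold, log2 4.12 ± 0.42). Its family is near-identical, so its reads may be shared with other Ear genes, and it missed the threshold with DESeq2 (adjusted p = 0.074). Next in size, and outside the lists, was Akr1c18, a hydroxysteroid dehydrogenase, from 0.224 to 3.2 CPM in K3117 and from 0.87 to 15.4 CPM in K3174 (16.4-fold, log2 4.03 ± 0.30, adjusted p = 8.0e-05). Ankrd22, an ankyrin repeat protein also outside the lists, rose 8.7-fold. Alox15 did not pass (log2 2.31, adjusted p = 0.17), and Ccr3, the eotaxin receptor, had no count in the 4 libraries. A count of 0 allows up to 3 counts in a library.

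Of 12 tested mast cell and basophil genes, 10 rose and none fell, with a median of 2.35 (6 called without K3174 Low and 7 without K3174 High). Cpa3 (chromosome 3, 20215620 to 20242181, minus strand), a mast cell carboxypeptidase, went from 3.68 to 28.4 CPM in K3117 and from 24.5 to 216 CPM in K3174 (8.27-fold, log2 3.05 ± 0.16, adjusted p = 1.2e-05). Il1rl1, the interleukin 33 receptor, went from 1.35 to 10.5 CPM in K3117 and from 5.7 to 43.7 CPM in K3174 (7.85-fold, log2 2.97 ± 0.23). Hdc, the histamine-forming enzyme, rose 3.17-fold and Cd200r3, a basophil receptor, 6.29-fold. Tph1, which makes serotonin in mast cells and was outside the list, went from 0.256 to 2.4 CPM in K3117 and from 0.72 to 11.5 CPM in K3174 (log2 3.71 ± 0.34). Kit did not pass (log2 -0.05 ± 0.11, adjusted p = 0.92), nor did Gata2, a factor of mast cells and progenitors (log2 0.34 ± 0.19, adjusted p = 0.47; -0.03 in K3117 and 0.76 in K3174). Tpsb2, a tryptase, had no count in either Low library and 0.56 CPM as the mean in High, at least 5.97-fold above a floor of 3 counts per library. With it at that bound the median was 2.32. Among defining mast cell genes, Mrgprb2 had no count in the 4 libraries. The summed CPM of the list, of which Kit is a large part, went from 388 to 689 in K3117 and from 512 to 1102 in K3174.

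**Figure D2:**
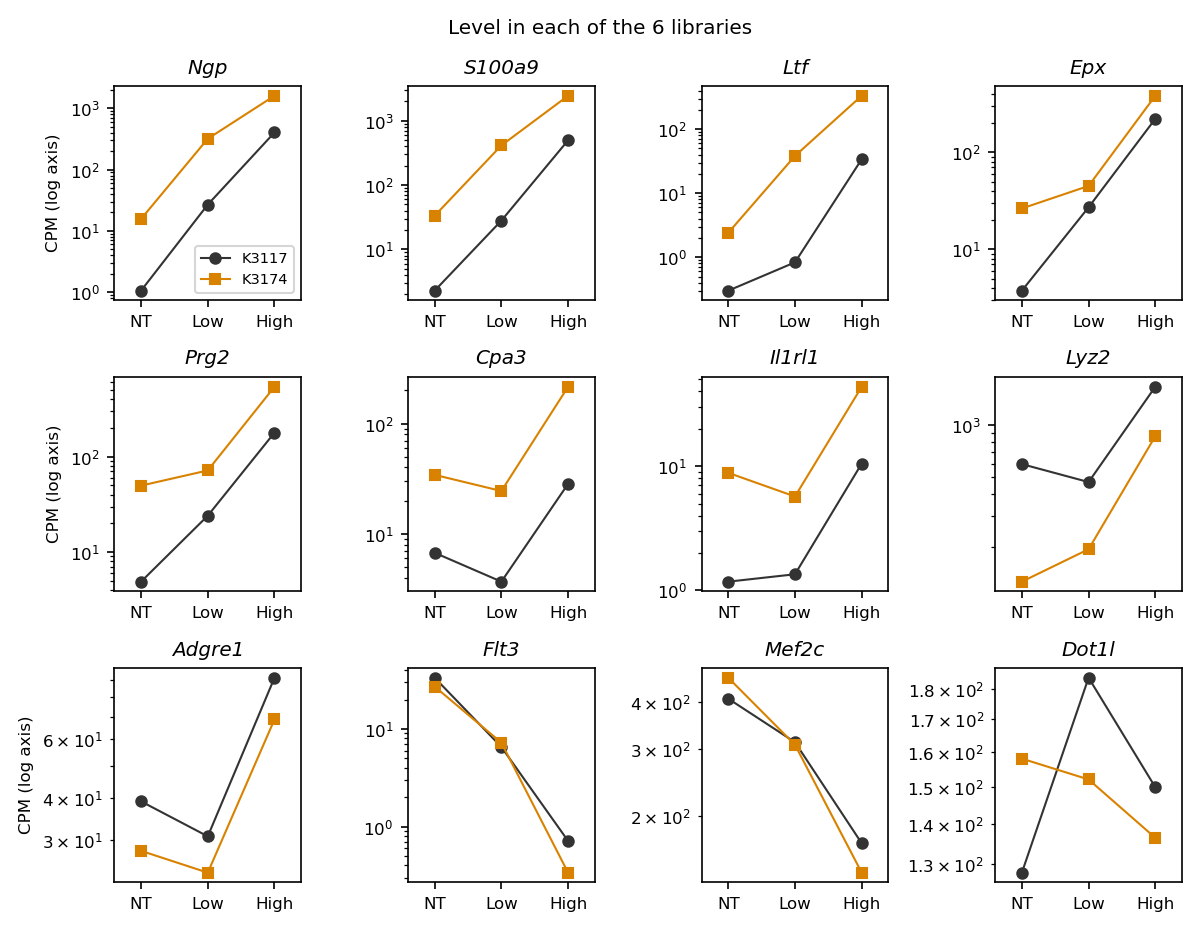
Level of 12 genes in each of the 6 libraries, in TMM-scaled CPM on a log axis that differs between panels; circles are K3117, squares are K3174, and lines join libraries of the same leukemia. Ngp, S100a9 and Ltf rose from NT to Low and again to High, Cpa3, Il1rl1 and Adgre1 were raised in High, and Flt3 went down at both steps.

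Monocyte and macrophage genes rose in part. Of 20 tested, 11 rose and none fell with all 6 libraries, with a median of 1.02. Fewer were called higher without K3117 Low, and members were also called lower without K3117 High or either NT library. Lyz2, lysozyme of granulocytes and macrophages, went from 471 to 1655 CPM in K3117 and from 194 to 862 CPM in K3174 (log2 2.0 ± 0.24, adjusted p = 0.00058). Gpnmb, a glycoprotein of lysosome-rich macrophages, went from 66.5 to 218 CPM in K3117 and from 10.7 to 31.8 CPM in K3174 (log2 1.65 ± 0.14), and Vcan, versican of classical monocytes, rose 3.01-fold. Ly6c2, the Ly6C antigen, did not pass (log2 0.41 ± 0.12, adjusted p = 0.082). Irf8, the factor that directs monocytes and dendritic cells, did not pass and was lower in High of each leukemia (from 111 to 74.3 CPM in K3117 and from 85 to 62.9 CPM in K3174; adjusted p = 0.21). The complement genes C1qa and C1qc, defining genes of resident macrophages, had no count in the 4 libraries.

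Receptors for microbes, antibody and complement also rose. Of 19 tested, 13 rose and none fell (median 0.92), but the count fell to 4 without K3117 Low and 8 without K3174 Low. C5ar1, the receptor of the chemoattractant C5a, went from 2.11 to 14.6 CPM in K3117 and from 3.51 to 17.7 CPM in K3174 (log2 2.55 ± 0.22, adjusted p = 9.3e-05). Tlr2, which senses bacterial lipoproteins, went from 67.6 to 109 CPM in K3117 and from 31.5 to 64.4 CPM in K3174 (log2 0.86 ± 0.13), and Itgam, the CD11b chain of complement receptor 3, from 28.4 to 89.5 CPM in K3117 and from 59.6 to 141 CPM in K3174 (log2 1.41 ± 0.27, adjusted p = 0.011, 0.061 without K3117 Low and 0.14 with DESeq2). Of 12 tested chemokine and formyl peptide receptors, 4 rose and none fell with all 6 libraries (median 0.57). Fewer rose without K3174 High, and a member was called lower without either NT library. Of the 4, Fpr2 and Fpr1, receptors for formylated bacterial peptides, rose 7.4-fold and 5.39-fold. Of 6 subunits of the phagocyte NADPH oxidase, 2 rose (median 0.44), with 1 called without any 1 of K3117 Low, K3174 Low and K3174 High and 5 without either NT library. Cybb, the catalytic chain, went from 269.6 to 808 CPM in K3117 and from 221 to 661 CPM in K3174 (log2 1.58 ± 0.17). C3, the central complement component, went from 607 to 1812 CPM in K3117 and from 940.4 to 2186 CPM in K3174, among the largest rises in CPM, a scale that grows with transcript length. Tmsb4x, the actin-binding peptide thymosin beta 4, was another, from 714 to 1331 CPM in K3117 and from 925 to 1434 CPM in K3174 (adjusted p = 0.013; 0.34 without K3117 Low).

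Of 13 genes for leukotrienes and prostaglandins, 6 rose and 1 fell. Alox5, which starts leukotriene synthesis, went from 52.8 to 122 CPM in K3117 and from 36.8 to 156 CPM in K3174 (log2 1.64 ± 0.18, adjusted p = 0.00035). Ltb4r1, the leukotriene B4 receptor, rose 3.26-fold, Ptgs1, cyclooxygenase 1, 2.12-fold and Ptges, a prostaglandin E synthase, 2.42-fold. Hpgd, which breaks prostaglandins down, went the other way, from 568 to 269 CPM in K3117 and from 489 to 149 CPM in K3174, with both High libraries below both Low libraries (log2 -1.38 ± 0.17, adjusted p = 0.00067). It was also the called gene with the largest fall in mean CPM. Next came Dnajc10, a reductase of the endoplasmic reticulum, from 710.5 to 525 CPM in K3117 and from 438 to 260.0 CPM in K3174 (adjusted p = 0.023; from 0.11 to 0.40 without 1 of K3117 Low, K3174 Low and K3174 High), and Slpi, an inhibitor of neutrophil proteases, from 407 to 235 CPM in K3117 and from 317 to 149 CPM in K3174 (adjusted p = 0.041; 0.28 without K3117 Low, 0.10 without K3174 High and 0.44 with DESeq2).

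Among 25 lysosomal and granule hydrolase genes and their inhibitors, 11 rose and none fell (median 0.47). The stefins Stfa1, Stfa2 and Stfa3, cysteine protease inhibitors of granulocytes, rose 5.5-, 8.23- and 11.8-fold; this family is near-identical and reads may be split between copies. Ctsh and Ctss, lysosomal cathepsins, rose 3.02-fold and 2.12-fold. Of 21 myeloid cytokine receptors, 8 rose and none fell (median 0.36; 5 without K3117 Low). They included Csf2rb, the shared chain for interleukin 3, interleukin 5 and GM-CSF (log2 0.87 ± 0.13), Il13ra1 (log2 1.13 ± 0.18; adjusted p = 0.0035, 0.069 without K3117 Low) and Il1r2, a decoy receptor for interleukin 1, from 0.352 to 2.76 CPM in K3117 and from 2.13 to 8.28 CPM in K3174. Of 24 inflammatory NF-kB genes, 6 rose and none fell (10 rose and 2 fell without either NT library). Among them Il1a and Il1b, the interleukin 1 cytokines, rose 4.01-fold and 3.16-fold, and Cxcl2, a neutrophil chemokine, 2.9-fold.

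A set of 11 genes passed between Low and High with little change between NT and Low (0.0696% of tested genes). They are described as moving only in this step. Their log2 fold changes for Low against NT ran from -0.28 ± 0.13 (Adgre1) to 0.11 ± 0.12 (Csf1r), so a small change there is not excluded. The rule asked for a call of High against Low, no call and a log2 fold change within 0.3 of 0 for Low against NT, and a called difference of the steps with the same sign. All 11 rose, and in all of them both High libraries lay above both Low libraries. That also held for 557 of the 652 genes called higher. In 10 of the 11 both High libraries also lay above both NT libraries. The steps share the Low libraries, and the choice rests on these same values, so the levels are a description. To show the start of a member with each motif, the RefSeq windows of Anxa1 (chr19:20390622-20390921, minus strand, C/EBP letters) and Csf2rb2 (chr15:78305672-78305971, minus strand, PU.1 letters) are printed with the match in capitals. Of 10 windows for 7 of these genes, 1 held each motif.
Anxa1: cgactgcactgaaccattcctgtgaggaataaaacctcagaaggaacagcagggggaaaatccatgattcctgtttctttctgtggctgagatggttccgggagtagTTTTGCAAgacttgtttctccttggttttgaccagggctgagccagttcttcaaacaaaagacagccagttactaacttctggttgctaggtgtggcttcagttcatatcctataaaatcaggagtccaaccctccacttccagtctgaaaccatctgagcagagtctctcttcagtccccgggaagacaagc
Csf2rb2: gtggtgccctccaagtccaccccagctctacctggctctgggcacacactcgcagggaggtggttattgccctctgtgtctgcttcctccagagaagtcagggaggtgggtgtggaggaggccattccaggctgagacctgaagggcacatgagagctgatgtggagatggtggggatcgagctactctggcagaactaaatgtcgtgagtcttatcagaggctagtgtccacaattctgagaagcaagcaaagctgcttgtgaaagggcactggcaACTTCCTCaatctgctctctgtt

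Fgr, a Src-family kinase of myeloid cells (chromosome 4, 132974095 to 133001910, plus strand), was at 2.89, 2.59 and 13.2 CPM in NT, Low and High of K3117 and 3.02, 3.36 and 17.2 CPM in those of K3174. High stood apart while NT and Low lay within 2.59 to 3.36 CPM (High against Low log2 2.35 ± 0.21, Low against NT -0.01, difference of the steps 2.35 ± 0.38, adjusted p = 0.031). Anxa1, annexin A1, which limits neutrophil recruitment, was at 19.8, 16.5 and 56.3 CPM in NT, Low and High of K3117 and 33.6, 34 and 137 CPM in those of K3174 (log2 1.90 ± 0.15 against -0.12; difference adjusted p = 0.014). Csf1r, the receptor for macrophage colony-stimulating factor, was at 89.6, 95.1 and 217 CPM in NT, Low and High of K3117 and 43.7, 47.9 and 125 CPM in those of K3174 (log2 1.29 ± 0.12 against 0.11; difference adjusted p = 0.049). Each leukemia had its own base level of Csf1r, and High was more than the Low library of the same leukemia in both.

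Ms4a2, the beta chain of the high-affinity IgE receptor, was at 4.81, 5.22 and 24 CPM in NT, Low and High of K3117 and 14.4, 12.1 and 45.7 CPM in those of K3174. Adgre1, the F4/80 antigen, was at 39.1, 30.8 and 91.5 CPM in NT, Low and High of K3117 and 27.8, 24 and 68.7 CPM in those of K3174. Lpl, lipoprotein lipase, was at 17.1, 16.2 and 71.5 CPM in NT, Low and High of K3117 and 6.13, 7.17 and 24 CPM in those of K3174. These 3 mark basophils and mast cells, macrophages and lipid uptake, and in each the High libraries were the highest of their leukemia. Bst1 and Cd38, related ADP-ribosyl cyclases of the cell surface, rose 5.06-fold and 3.4-fold, Il1rn, the interleukin 1 receptor antagonist, 3.39-fold, and Csf2rb2, an interleukin 3 receptor chain near-identical to Csf2rb, 3.29-fold. Psap, the precursor of lysosomal saposins and the smallest rise of the set, went from 712 to 1316 CPM in K3117 and from 443 to 842 CPM in K3174 (1.87-fold) and is named because it completes the set. The set is sensitive to single libraries. It was empty without the replicate block and without either Low library, and it held 109 genes without K3174 NT (6 of the 11 among them), 53 without K3117 High (all 11), 47 without K3117 NT (8 of the 11) and 27 without K3174 High (10 of the 11).

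**Figure D3:**
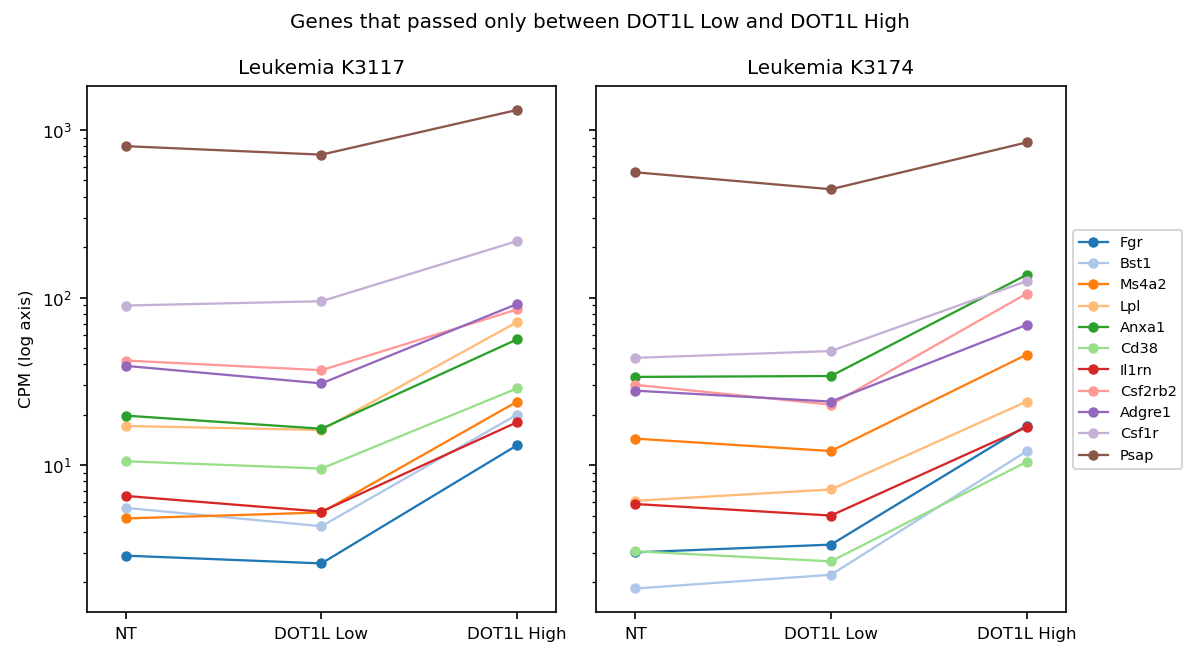
Levels of the 11 genes in NT, DOT1L Low and DOT1L High, in TMM-scaled CPM on a log axis, for K3117 (left) and K3174 (right); each line is 1 gene. Lines are nearly level from NT to Low and rise to High, as for Fgr, with High at 13.2 and 17.2 CPM.

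The difference of the steps itself passed for 56 genes (0.354%), 55 with a larger value for High against Low. Of the 55, 50 were called higher for High against Low, 53 had a log2 fold change below 0 for Low against NT, and 20 were called lower there. A low value in a Low library enters both steps with opposite signs. Cpa3 was at 6.74, 3.68 and 28.4 CPM in NT, Low and High of K3117 and 34.3, 24.5 and 216 CPM in those of K3174 (difference 3.71 ± 0.30, adjusted p = 0.00086), so Low was the lowest library in each leukemia. Ccr1, a chemokine receptor of myeloid cells, was at 30.2, 6.21 and 13 CPM in NT, Low and High of K3117 and 17.1, 6.75 and 14 CPM in those of K3174. In High it had regained part of its NT level (High against Low log2 1.06 ± 0.23, adjusted p = 0.022; 0.28 without K3117 Low and 0.099 without K3174 High). Gpnmb was at 98.7, 66.5 and 218 CPM in NT, Low and High of K3117 and 19.4, 10.7 and 31.8 CPM in those of K3174, below NT in Low and above it in High. The 1 gene with a negative difference was Tmem178, named after its value was seen. For comparison, 528 genes (3.34%) passed for Low against NT, and the difference of the steps passed for 8 genes without K3174 Low and for 439 without K3174 NT.

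Among genes that fell, Flt3 (chromosome 5, 147330741 to 147400489, minus strand) led. This receptor tyrosine kinase of early progenitors went from 6.54 to 0.711 CPM in K3117 and from 7.23 to 0.337 CPM in K3174, 13.6-fold lower in High (log2 -3.77 ± 0.29, adjusted p = 8.0e-05), with no overlap between the groups; the leukemias were close to each other in Low but differed in High, where few reads were counted. Gcnt4, a glycosyltransferase, went from 14.6 to 1.87 CPM in K3117 and from 2.16 to 0.505 CPM in K3174 (log2 -2.66 ± 0.27), and Tns1, tensin 1 of focal adhesions, from 64 to 12.5 CPM in K3117 and from 23.4 to 6.36 CPM in K3174 (log2 -2.14 ± 0.18). Jag2, a Notch ligand, went from 22.5 to 4.67 CPM in K3117 and from 8.4 to 2.86 CPM in K3174 (log2 -1.95 ± 0.24). Hnf4a, a nuclear receptor best known from liver, went from 83.3 to 29.7 CPM in K3117 and from 55.7 to 13.2 CPM in K3174 (log2 -1.73 ± 0.30, adjusted p = 0.005; 0.054 with DESeq2). Aldh1l2, a mitochondrial folate enzyme, went from 7.5 to 2.09 CPM in K3117 and from 9.38 to 2.63 CPM in K3174, the same log2 difference in both leukemias (-1.81 in K3117 and -1.81 in K3174). Pcp4l1, Mrvi1, Stk32c, Afm and Alpk2 also fell, by 1.67 (Stk32c) to 2.45 (Mrvi1) on the log2 scale (Afm had an adjusted p of 0.090 without K3117 High). Ctr9, a subunit of the PAF1 elongation complex, went from 370.1 to 188 CPM in K3117 and from 232 to 128 CPM in K3174 (log2 -0.92 ± 0.12, adjusted p = 0.0011), and Klhl5, a kelch protein, from 461 to 250.4 CPM in K3117 and from 259.7 to 131 CPM in K3174.

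Of 27 KMT2A fusion targets, 9 fell and none rose, with a median of -0.42, and 25 had a log2 fold change below 0. The 9 were Flt3, Bcl2, Mef2c, Mecom, Eya1, Meis1, Hoxa5, Hoxa3 and Sox4. Mef2c, a transcription factor of myeloid progenitors, went from 313 to 169.7 CPM in K3117 and from 308 to 142 CPM in K3174 (log2 -1.0 ± 0.13, adjusted p = 0.001). Bcl2, the survival protein, went from 66 to 31.1 CPM in K3117 and from 48.2 to 24.1 CPM in K3174 (log2 -1.04 ± 0.13). Meis1, the cofactor of Hoxa9, went from 60.5 to 39.4 CPM in K3117 and from 60.7 to 38.9 CPM in K3174 (log2 -0.63 ± 0.12, adjusted p = 0.01) and missed the threshold without any 1 of the 4 libraries (adjusted p from 0.072 to 0.12). Hoxa9 itself was lower in High of both leukemias, from 215 to 169.7 CPM in K3117 and from 202 to 154 CPM in K3174. In edgeR's test it did not pass (log2 -0.37 ± 0.11, adjusted p = 0.10). It passed with upper quartile factors (log2 -0.43, adjusted p = 0.044) and with the 4 High and Low libraries alone (adjusted p = 0.0060). Leaving out either NT library is nearly the fit of those 4 libraries and is no separate result. Myb (log2 0.08) and Myc (log2 -0.01), regulators of proliferation on the same list, did not pass either. The count of called targets ranged from 4 (without K3174 Low) and 5 (without K3117 Low) to 20 (without K3117 NT).

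Of 24 DOT1L partners and elongation factors tested, none was called by edgeR or DESeq2 (3 had an unadjusted p below 0.05), with a median of 0.03; leaving out 1 library gave 0 to 2 called higher and 0 to 1 called lower. Mllt3, the fusion partner, went from 28.1 to 40.6 CPM in K3117 and from 21.5 to 30.9 CPM in K3174 (log2 0.53 ± 0.15, adjusted p = 0.067), and whether its reads come from the fusion was not tested. In the imprinted cluster on chromosome 12, 4 genes could be tested and 3 fell. Rian went from 1.28 to 0.356 CPM in K3117 and from 13.3 to 2.52 CPM in K3174 (log2 -2.38 ± 0.32), Dlk1, a Notch-related surface protein, from 31.9 to 11.2 CPM in K3117 and from 32.7 to 10.8 CPM in K3174 (log2 -1.56 ± 0.25) and Meg3 from 0.352 to 0.0889 CPM in K3117 and from 4.26 to 1.08 CPM in K3174. Meg3 and Rian are noncoding RNAs of the maternal copy and differ in level between the leukemias by more than between High and Low. Without K3174 High, Rian (adjusted p = 0.11) and Meg3 (1.0) did not pass. Of 18 stem and progenitor genes, 4 fell and 2 rose, with 1 called lower without any 1 of K3117 Low, K3174 Low and K3174 High and 2 without K3117 High, and with 1 to 4 called higher when 1 library was left out. Hlf, a transcription factor of stem cells, went from 18.2 to 5.6 CPM in K3117 and from 2.37 to 1.55 CPM in K3174. Its adjusted p was 0.011 in edgeR's test, and the call was lost without K3117 Low (log2 -0.77) or K3117 High (-0.855). Prom1, the CD133 antigen, rose from 6.98 to 26.8 CPM in K3117 and from 24.8 to 61.4 CPM in K3174.

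Several antigen presentation genes fell. Of 12 MHC class I and immunoproteasome genes, 5 fell and none rose (median -0.30). Tap2, a chain of the peptide transporter, went from 118 to 65.9 CPM in K3117 and from 88.1 to 57.6 CPM in K3174 (log2 -0.73 ± 0.13, adjusted p = 0.0082), and Psmb8, an immunoproteasome subunit, from 78.2 to 43.4 CPM in K3117 and from 61.4 to 36.8 CPM in K3174 (log2 -0.80 ± 0.16, adjusted p = 0.014). Psmb9, Tap1 and Nlrc5 were the others, and none of the 5 passed without K3117 Low (adjusted p from 0.20 to 0.66); 2 members were called without K3117 High. Of 11 dendritic cell and class II genes, 3 fell and none rose: Flt3, Tcf4, the factor of plasmacytoid dendritic cells, from 211 to 127 CPM in K3117 and from 158 to 89.3 CPM in K3174 (log2 -0.77 ± 0.11), and Siglech, at 1.51 CPM or less in the 4 libraries (adjusted p = 0.028; from 0.12 to 0.18 without 1 of K3117 High, K3117 Low and K3174 Low). Of 23 interferon response genes, 2 fell, Gbp3 (log2 -0.86 ± 0.14; adjusted p = 0.050 without K3117 Low, just past the threshold) and Oas3 (0.35 without it), and none rose.

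With all 6 libraries, genes of proliferation and protein synthesis stayed out of the calls. Of 28 S phase genes, 26 genes of G2 and M phase, 16 cyclins and inhibitors, 35 ribosomal protein genes, 26 unfolded protein and stress response genes and 12 heat shock genes, 143 in all, edgeR called 0 and DESeq2 called 0. An unadjusted p below 0.05 in edgeR's test was found for 11 of them, beside 2417 of all 15812 tested genes. Of the 11, 7 were among the 16 cyclins and inhibitors, whose log2 fold changes ran from -1.74 to 0.57. The list medians lay between -0.04 and 0.04. Without either NT library, 5 cyclins and inhibitors were called lower and 1 higher, and 2 of the unfolded protein and stress genes were called higher and 1 lower. All 25 MYC and ribosome biogenesis genes had a log2 fold change below 0 (median -0.18; -0.11 in K3117 and -0.30 in K3174), and none was called by edgeR or DESeq2 (1 had an unadjusted p below 0.05); 4 were called lower without either NT library and 2 without K3117 High. Of 15 tested BCL2 family genes, 3 rose and 1 fell (median 0.05; without K3174 Low none was called higher, and without K3117 Low 1). The survival gene Bcl2 fell. Bcl2a1a and Bcl2a1d, near-identical genes of the survival protein A1, rose 2.96-fold and 3.49-fold (adjusted p = 0.0075 and 0.0091). Bcl2l11, the death-promoting protein BIM, rose by log2 0.71 ± 0.18 (adjusted p = 0.041; from 0.12 to 0.53 without 1 of K3117 Low, K3174 Low and K3174 High). Of 24 p53 targets, 3 rose (1 without K3117 Low, 5 without K3117 High and 6 without either NT library): Perp, a tetraspan membrane protein, from 6.15 to 15.8 CPM in K3117 and from 21.1 to 63.3 CPM in K3174, the death receptor Fas (2.01-fold; adjusted p = 0.008, 0.24 without K3117 Low) and Btg2 (adjusted p = 0.047, lost in 3 of the 6 leave-one-out fits, at most 0.41, or with library sizes alone, 0.075).

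Genes that mark other lineages were given beside these results, and their part in them was not tested. Of 10 erythroid genes, 6 rose (3 without either Low library), all but Car2 below 10 CPM in each library: Gata1, the erythroid and mast cell factor, went from 3.04 to 9.43 CPM in K3117 and from 2.49 to 9.83 CPM in K3174 (log2 1.79 ± 0.30), and the globin Hbb-bs from 0.0641 to 1.33 CPM in K3117 and from 0.15 to 1.45 CPM in K3174 (adjusted p = 0.015; 0.23 without K3117 Low). The summed level of the erythroid list, mostly Tfrc, went from 647 to 742 CPM in K3117 and from 876 to 835 in K3174. Of 10 megakaryocyte genes, 4 rose, among them Itga2b, from 24.4 to 39.5 CPM in K3117 and from 13 to 55.6 CPM in K3174 (adjusted p = 0.01), and none was called without K3174 Low, 2 without K3117 Low and 1 without K3174 High. Of 7 tested T and NK cell genes, 1 rose and 1 fell: Gzmb, granzyme B, went from 1.03 to 1.82 CPM in K3117 and from 0.929 to 16.7 CPM in K3174 (adjusted p = 0.032; 0.52 without K3174 Low), and Cd28 from 60.8 to 38.2 CPM in K3117 and from 48.2 to 15.9 CPM in K3174 (adjusted p = 0.012; 0.12 without K3174 High). The defining genes Cd3e, Cd4, Cd8a, Trbc1 and Trbc2 had no count in the 4 libraries. Of 7 B cell genes, 1 fell, Ighm, from 129 to 48.6 CPM in K3117 and from 88.7 to 51.7 CPM in K3174, while Ms4a1 and Igkc had no count. Of 5 stromal and endothelial genes, 1 rose, Vcam1, from 4.45 to 25.3 CPM in K3117 and from 13.3 to 25 CPM in K3174 (adjusted p = 0.0078; 0.087 without K3117 Low), and Col1a2, Col3a1 and Cxcl12 had no count. The summed T and NK, B cell and stromal lists lay at 91.5 to 98.7, 62.4 to 143 and 155 to 236 CPM in the 4 libraries.

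**Figure D4:**
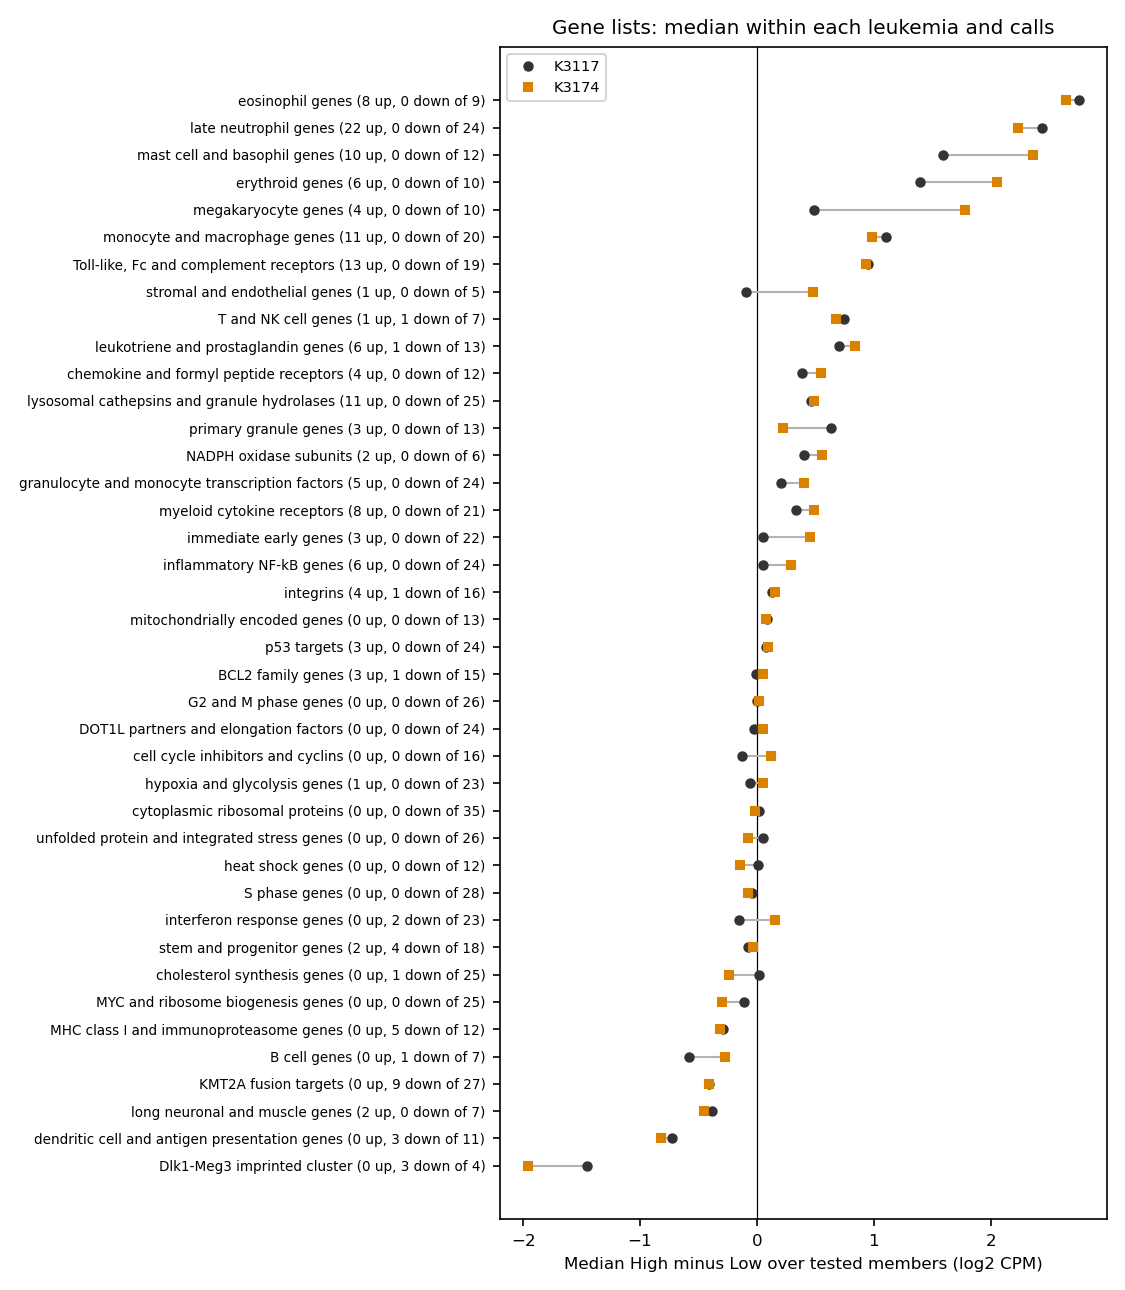
Median High minus Low difference in log2 CPM over the tested members of each of 40 gene lists, within K3117 (circles) and K3174 (squares), with the numbers called up and down of those tested in parentheses. Eosinophil, late neutrophil and mast cell lists lie farthest to the right and the Dlk1-Meg3 cluster farthest to the left, while cell cycle and ribosomal lists lie near 0.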

How the data were processed

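RNA-seq of mouse KMT2A-MLLT3 leukemia cells was read in pairs of 150 bp per the labels' protocols, and the authors deposited raw gene counts, 1 column for each library. Per the submitters' processing notes the tools were STAR, STAR-Fusion, kallisto and DESeq2 with the build mm10, whose roles, like the annotation and strand setting, are not given in the sources. Overlapping and antisense genes cannot be separated, and counts of near-identical families (Stfa, Ear, Csf2rb, Bcl2a1, globins) are uncertain.

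The default filter of edgeR kept 15812 of 49585 IDs, and edgeR 4.0.16 in R 4.3.3 fitted a quasi-likelihood model of the label with the K number as a block to all 6 libraries after TMM scaling (2 residual and 9.38 prior degrees of freedom). Total counts were between 22908445 and 33265848 per library; every pair of libraries differed beyond sampling noise (the lowest chi-square over its degrees of freedom was 24.2). The SE is the log2 fold change over the root of F. Within-leukemia differences use a prior count of 2. The pairing comes from the K numbers in the titles; the deviations from group means of same-numbered Low and High libraries correlated at 0.64. Symbols matched 99.5% of IDs, and positions are from GENCODE on GRCm38. The fit was tested on simulated data.

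The comparison and the 40 gene lists (737 genes, 645 tested) were chosen with earlier results of these data known, so their counts and medians describe and are not independent support. Named genes were Dot1l, the 12 largest rises and falls at a mean of at least 5 CPM, the 10 largest that moved only in this step, the 6 largest changes in CPM each way, and per list up to 5 called members with the smallest p, with uncalled members where 3 or fewer. Other genes on a list were named for their role. Some genes that the rule named and some members of the lists are not reported here. Alternatives were other scaling factors, filters, DESeq2 1.42.0, the 4 libraries alone, no block and leaving out each library.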

Additional observations from a re-analysis of the deposited data

How the results depend on the processing

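With 1 library per label and leukemia, the calls depend on the pairing. The paired fit with the K number as replicate block gave 866 calls, 11 genes that moved only in this step and 56 differences of the steps; the fit with no replicate block gave 0, 0 and 0. Without a filter on low counts these were 1425, 49 and 304, at a mean of at least 5 CPM 522, 3 and 17. DESeq2 gave 23 and 108 for the last pair, and library sizes alone gave 7 and 37. The 4 High and Low libraries with a replicate block gave 1864 calls; without NT the other counts could not be computed. Leaving out 1 library gave 335 to 1982 calls, 0 to 109 genes that moved only in this step and 8 to 439 differences of the steps. Mpo ranged from -0.60 (without K3117 High, adjusted p = 0.086) to 1.12 (without K3174 High), against 0.45 with all libraries. No named called gene changed direction under the alternatives run, and of 132 named called genes 39 missed the threshold without K3117 Low, 29 without K3174 Low, 12 without K3117 High and 0 without either NT library; without K3174 High 25 of 131 did. The causes were not tested. Genes under 1 CPM in all libraries rest on few counts.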

Other observations

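Further lists were measured between DOT1L Low and DOT1L High with the same fit. Of 24 granulocyte and monocyte transcription factors, 5 rose and none fell with all 6 libraries. Fewer rose without K3174 High, K3174 Low or K3117 Low, and more without either NT library. Members were also called lower without K3117 High or either NT library. Besides Cebpe and Gfi1 the 5 were Id2, Cebpd and Klf4, the last a monocyte factor. Spi1 (PU.1) went from 239 to 312 CPM in K3117 and from 236 to 328 CPM in K3174 and did not pass (adjusted p = 0.064), and Cebpa had a log2 fold change of -0.10 (adjusted p = 0.84). Of 22 immediate early genes, 3 rose, among them Fos (log2 1.37 ± 0.23); 1 rose without K3174 Low or K3174 High and 8 without either NT library. Of 16 integrins, 4 rose, led by Itgb2l, and 1 fell, Itgb7, an integrin chain of lymphocytes and mast cells (adjusted p = 0.048 with edgeR's test, 0.83 without K3117 Low). Without K3117 Low 2 integrins were called higher and 0 lower, and without either NT library 3 were called lower. Of 23 hypoxia and glycolysis genes, 1 rose, the glucose transporter Slc2a3, from 9.45 to 15.1 CPM in K3117 and from 12.5 to 47.6 CPM in K3174; this share of 4.35% is near the 4.12% called higher among all tested genes. Of 7 long neuronal and muscle genes tested, 2 rose, while the other 5 had log2 fold changes below 0 and did not pass (list median -0.51). Neb, nebulin of muscle, at 2.36 CPM or less in the 4 libraries, had an adjusted p of 0.049, but of 0.067 with library sizes alone, 0.057 with upper quartile factors, 0.094 with DESeq2 and from 0.24 to 0.68 without 1 of K3117 Low, K3174 Low and K3174 High. Syne1, a nuclear envelope protein, went from 116 to 337 CPM in K3117 and from 334 to 757 CPM in K3174 (log2 1.34 ± 0.19, adjusted p = 0.0016 with edgeR's test). Without K3174 High, Slc2a3 (adjusted p = 0.10; 0.11 without K3174 Low), Klf4 (0.49), Cebpd (0.28) and Id2 (0.091) missed the threshold.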
